A study of Zea mays with 4 samples.

Results

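The 84 maize loci described here were higher in the rea1 mutant than in wild type in total RNA and also in polysome-bound RNA. They were taken from 15835 loci with a mean level of at least 1 and below 100 FPKM (fragments scaled to transcript length and library size), a length of at least 600 bp and under 20 kb, and a position outside the mitochondrial and plastid genomes. The files list 29642 loci in all. For each locus the difference was log2(FPKM + 1) in rea1 minus that in wild type, taken separately in each RNA fraction. From it the median over the 17682 loci that reached a mean of 1 FPKM was subtracted, which was 0.62 in total and 0.24 in polysome-bound RNA. A locus was included when both centred differences were at least 1, that is at least 2-fold above the shift shared by most loci. The members were thus chosen by these very differences, which are given below as a description and carry no test.

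The tissue was endosperm at 15 days after pollination, from kernels of maize (Zea mays). The 4 groups were formed by genotype, rea1 or wild type, and by RNA fraction, total or polysome-bound, with 1 library in each. Total RNA came from the cleared supernatant of the homogenised powder, and polysome-bound RNA from the pellet of ribosomes that passed a dense sucrose cushion in the centrifuge. The labels name neither the gene mutated in rea1, nor the allele or the genetic background of the mutant and of the wild type. Every genotype difference below compares 1 library with 1 other and has no replicate check. Higher and lower refer to these libraries.

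Endosperm is the tissue of the cereal kernel that fills with starch and storage protein, and at this stage a small number of storage-protein transcripts take up much of its RNA. Polysomes are mRNAs that carry several ribosomes, so RNA recovered with them is enriched for messages in translation. In yeast, the protein called Rea1 (midasin) is an AAA ATPase that releases assembly factors from the maturing large ribosomal subunit. The loci carry positions on B73 RefGen_v3 and no gene names. Their functions are therefore not described, markers of the labelled tissue were not looked up, and each locus is called by its chromosome, start and end. In bulk endosperm, more cells of a type and more RNA per cell cannot be told apart.

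The summed FPKM of a library lay between 846544 and 977156, and 25467 to 26748 loci were above 0. No read totals come with the files, so the depth behind a value is unknown. The top 10 loci took 43.8% of all FPKM in total RNA of wild type and 13.4% in that of rea1. FPKM is a share of a library, so such a difference moves every other locus, and the subtraction of the median was made for that reason. Summed over the 84 loci, FPKM was 648 in wild-type and 4655 in rea1 total RNA, and 539 and 2242 in polysome-bound RNA. These sums were 0.0663% and 0.533% of the total RNA libraries and 0.0601% and 0.265% of the polysome-bound ones.

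Of the 15835 loci within the limits, 935 (5.9%) reached the 2-fold limit in total RNA and 247 (1.56%) reached it in polysome-bound RNA. The 84 loci that reached it in both were 0.53% of all, 8.98% of the total RNA list and 34.0% of the polysome list. The rule fixes these counts, and nothing is read from them about the members. The libraries of the 2 comparisons are different, but the labels do not say whether both fractions of a genotype came from separate kernels. A further 157 loci within the limits were at least 2-fold lower in rea1 in both fractions.

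Across the range of the total RNA difference, the share of loci that also passed in polysome-bound RNA was graded. It was 5.74% of the 627 loci with a centred difference of 1 to 1.5 in total RNA, 8.76% of 194 loci at 1.5 to 2 and 19.3% of 88 loci at 2 to 3. Of the 26 loci at 3 or more it was 53.8%. The median polysome difference of the same classes was 0.24, 0.28, 0.32 and 1.41. The median over all loci within the limits was -0.01 and their upper quartile 0.25. The middle locus of each class was thus above the median of all, and only that of the last class was past the 2-fold limit on polysomes. The interquartile range of the polysome difference was 0.61, 0.71, 0.80 and 2.69 in these classes, so the last was widely spread. These shares use the differences of the rule and carry no test.

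**Figure D1:**
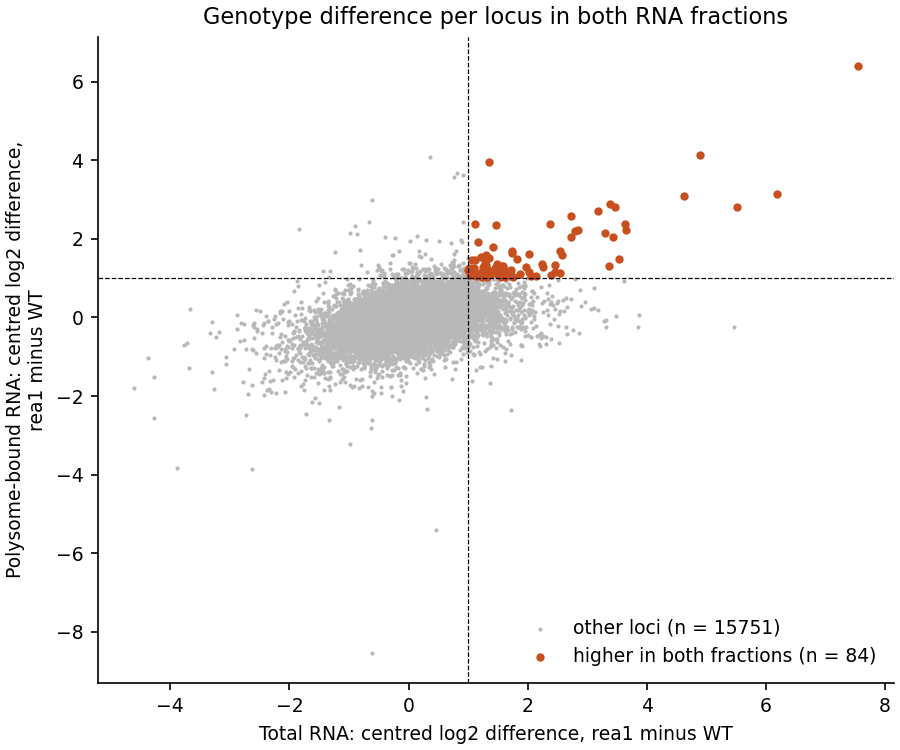
Each point is 1 locus, with the centred log2 difference of rea1 minus wild type in total RNA on the x axis and in polysome-bound RNA on the y axis. Dashed lines mark a difference of 1, and the 84 orange points in the upper right are the loci chosen, 4 of which are at 3 or more on both axes.

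In total RNA the 84 loci had a lowest, median and highest level of 2.94, 31.8 and 284 FPKM in rea1, against 0, 3.73 and 42.1 in wild type. In polysome-bound RNA these were 1.66, 10.5 and 176 FPKM in rea1, against 0, 2.53 and 52.8 in wild type. In 78 of the 84 loci the lower rea1 library was above the higher wild-type library. That was so in 43.3% of all loci within the limits. Values in rea1 as deposited were above wild type in 85.0% of these loci in total and in 71.7% in polysome-bound RNA. The rea1 total library was the highest of the 4 in 76 loci and the rea1 polysome library in the other 8. That a rea1 library is the highest follows from the rule. Within rea1, polysome-bound RNA was below total RNA in 90.5% of members and in 77.2% of all loci within the limits.

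Ranked among all 29642 loci of a library, the median member stood at percentile 61.6 in wild-type total RNA and 87.4 in rea1 total RNA. In polysome-bound RNA it stood at percentile 57.4 in wild type and 76.7 in rea1. The median of all loci within the limits was between 68.7 and 68.9 in each library. The median member was thus below the middle of comparable loci in both wild-type libraries and above it in both rea1 libraries. Ranks need no scaling, but the members were chosen from these same libraries after centring. This order is therefore a description and no independent support. The members spread across that middle: their upper quartile in wild type was 80.0 (total RNA) and 75.9 (polysomes), and their lower quartile was 66.2 in rea1 polysome-bound RNA.

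**Figure D2:**
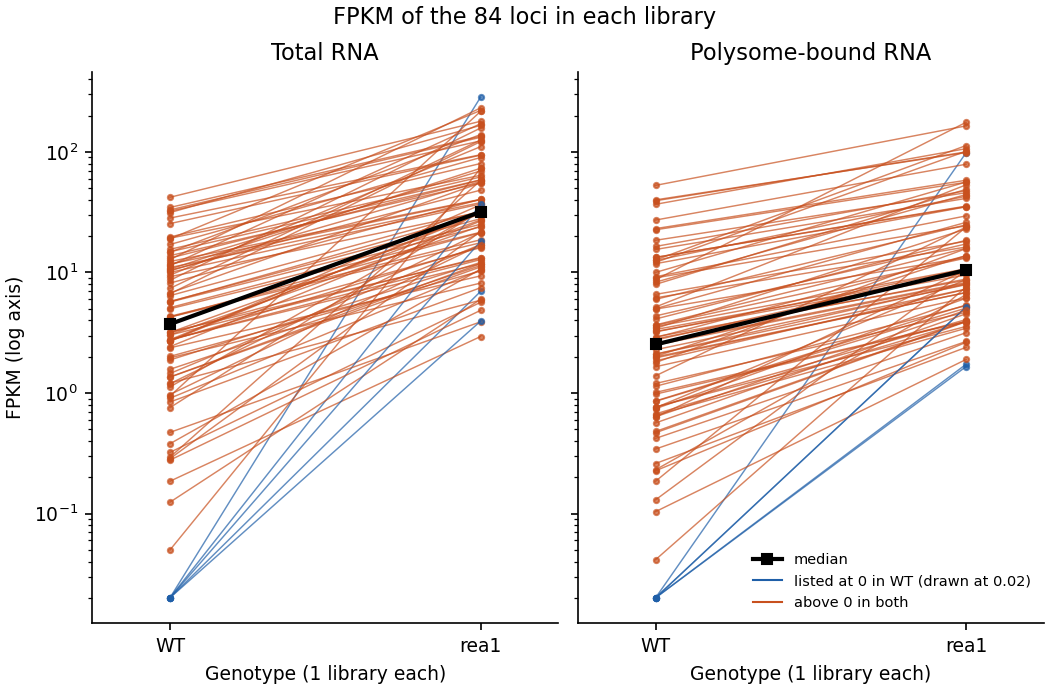
Each line joins the FPKM of 1 locus in the wild-type library to that in the rea1 library, on a log axis, for total RNA (left) and polysome-bound RNA (right). Black squares are the medians, at 3.73 and 31.8 FPKM on the left and 2.53 and 10.5 on the right; blue lines are loci listed at 0 in wild type, drawn at 0.02.

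The centred difference in total RNA ran from 1.002 to 7.54 with a median of 1.61, and in polysome-bound RNA from 1.02 to 6.39 with a median of 1.30. As deposited, the 78 loci above 0 in all libraries were a median of 5.43-fold higher in rea1 total RNA and 3.98-fold higher in rea1 polysome-bound RNA. The medians over the 15700 loci within the limits and above 0 were 1.66-fold and 1.23-fold. By size, 17 members had both differences at 2 or more, 28 had both below 1.5, and 39 lay between. The difference was larger in total than in polysome-bound RNA in 62 of the 84 loci (73.8%), against 49.2% of all loci within the limits. Total RNA differences were also spread more widely over all of these loci, with quartiles of -0.39 and 0.38 against -0.28 and 0.25 on polysomes.

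The number of members depends on the value added before the logarithm. It was 225 with 0.1 in place of 1, and 34 with 5, of which 83 and 33 were among the 84. Without subtraction of the median it was 337, which included all 84. The 142 loci added with 0.1 had a median of 2.50 mean FPKM, and the 51 lost with 5 had a median of 6.73.

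Among loci above 0 in all libraries, the largest difference held by both fractions was on chromosome 7, at 164603766 to 164605241. That locus had 0.293 FPKM in total RNA of wild type and 57.8 in that of rea1, and at 0.185 and 23.8 FPKM in polysome-bound RNA. It was nearly silent in wild type and of moderate level in both rea1 libraries, with centred differences of 4.89 in total and 4.14 in polysome-bound RNA. This order depends on the value added before the logarithm: with 5 the smaller difference of this locus was 2.33, under the 2.60, 2.50 and 2.38 of the chromosome 4 and chromosome 3 loci described below.

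On the same chromosome, the locus 150307605 to 150310106 had 0.943 FPKM in wild-type and 217 in rea1 total RNA. On polysomes it was at 1.39 FPKM in wild type and 23.8 in rea1. Both rea1 libraries were far above both wild-type libraries, but the step was 230-fold in total and 17.1-fold in polysome-bound RNA.

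The locus on chromosome 2 at 19268233 to 19269788 had the lowest wild-type values of the 6 named by this criterion, 0.0499 FPKM in total and 0.0414 in polysome-bound RNA. In rea1 it was at 72.9 and 7.59 FPKM. Its ratios of 1462 and 183 rest on wild-type values far below 1 FPKM, where the counting error is unknown. Its centred differences were 5.52 and 2.80, and the smaller of them was 5.47 with 0.1 and 1.18 with 5 added before the logarithm.

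The 3 others of the 6 were well above 1 FPKM in wild type. On chromosome 3, the locus 217177061 to 217180016 had 6.66 FPKM in wild-type and 122 in rea1 total RNA, and at 5.18 and 53.4 FPKM on polysomes. Its step was 18.3-fold in total and 10.3-fold in polysome-bound RNA. On chromosome 4, the locus 239420850 to 239424822 had 12.8 and 232 FPKM in total RNA of wild type and rea1, and at 12.7 and 113 FPKM on polysomes. The locus at 239030864 to 239039976, near it, was at 11.4 and 171 FPKM in total RNA and at 12.1 and 101 FPKM on polysomes. These chromosome 4 loci were alike in level and in step, 18.1-fold and 15.0-fold in total and 8.91-fold and 8.36-fold in polysome-bound RNA.

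Above 0 in all 4 libraries were 78 of the 84 members, and 15700 of the 15835 loci within the limits. The other 6 members were listed at 0 in at least 1 wild-type library. None was listed at 0 in a rea1 library, which the rule does not allow. An entry of 0 can be a failed estimate, so no fold is given for these 6. The one with the highest mean of all 84 was the locus on chromosome 2 at 198478457 to 198479148, 692 bp long, at 284 FPKM in rea1 total and 98.5 in rea1 polysome-bound RNA and listed at 0 in both wild-type libraries. The locus on chromosome 6 at 144849851 to 144860479, at 18.2 and 5.17 FPKM in rea1, was listed at 0 in both wild-type libraries too, but a second entry has the same coordinates. That second entry was at 17.8 and 12.5 FPKM in total RNA of rea1 and wild type and at 17.7 and 17.4 FPKM on polysomes. With 5 added before the logarithm the smaller difference of the member was 0.89 in place of 2.38, under the limit. Whether fragments were divided differently between these entries was not tested.

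The other 4 were named after their values were seen. On chromosome 8, the locus 1521645 to 1523148 was listed at 0 in total RNA of wild type and at 0.130 FPKM on its polysomes, against 36.7 and 10.4 FPKM in rea1. It was the fourth locus with both differences at 3 or more, beside those at 198.48 Mb of chromosome 2 and at 150.31 and 164.60 Mb of chromosome 7. The loci on chromosome 1 at 12452642 to 12453346 and on chromosome 4 at 196644964 to 196645939 were listed at 0 in both wild-type libraries. In rea1 total and polysome-bound RNA the former was at 3.94 and 1.66 FPKM, and the latter at 6.96 and 5.19 FPKM. The locus on chromosome 8 at 19977749 to 19982371 had 0.322 FPKM in total RNA of wild type and was listed at 0 on its polysomes, against 5.65 and 1.73 FPKM in rea1. In rea1 these last 3 were below the medians of the 84 loci, 31.8 FPKM in total and 10.5 in polysome-bound RNA. They were above the median of all listed loci in rea1 total RNA, 2.85 FPKM.

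By wild-type level, 18 of the 84 loci (21.4%) were below 1 FPKM in both wild-type libraries, against 3.06% of all loci within the limits. Since a locus low in wild type needs a high rea1 value to reach the mean of 1 FPKM, these loci pass the limits more easily when they are higher in rea1. In rea1 these 18 loci had a median of 10.5 FPKM in total and 4.97 in polysome-bound RNA. At the other end, 15 members (17.9%) were at 10 FPKM or more in both wild-type libraries, against 27.8% of all loci within the limits. Their medians were 19.2 and 94.8 FPKM in wild-type and rea1 total RNA and 18.5 and 58.2 FPKM on polysomes. Their largest centred differences were 3.46 and 2.81, those of the chromosome 4 locus at 239.42 Mb.

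The member with the second highest mean, on chromosome 4 at 152593574 to 152607062, was of this kind. It had 32.3 FPKM in wild-type and 123 in rea1 total RNA, and at 52.8 and 165 FPKM on polysomes. Its polysome values were above its total RNA values in both genotypes, and its step was of similar size in both fractions, 3.83-fold and 3.11-fold.

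Polysome-bound RNA was below total RNA for most members in both genotypes. On the log2(FPKM + 1) scale the median polysome-to-total ratio of the 84 loci was -0.28 for wild type and -1.17 for rea1. It was -0.07 and -0.46 over all loci within the limits. The 851 loci past the limit in total RNA only had medians of 0.30 and -1.27. Those of the 163 loci past it in polysome-bound RNA only were -0.53 and 0.03. A low ratio in rea1 was thus not particular to the members. The ratio was at least 2-fold below 1 in 51 members (60.7%) in rea1, where 19.6% of all loci within the limits were, and in 15 members (17.9%) in wild type, where 6.73% were. FPKM is relative to each library, so the ratio does not give the share of a message on polysomes. The same libraries entered the rule, so these values are a description. Members with a lower ratio in wild type tended to have a lower one in rea1. The Spearman rho between genotypes was 0.51 over the 84 loci and 0.52 over all 15835, without a p, since each locus shares its libraries with all others.

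The change of that ratio between genotypes was the centred polysome difference minus the centred total RNA difference. Its median was -0.34 over the 84 loci and 0.01 over all loci within the limits. The median change was -1.17 over the 851 loci past the limit in total RNA only. Over the 163 past it in polysome-bound RNA only it was 0.89, and those limits set both signs. In 15 members the change was -1 or lower (17.9%, against 6.07% of all), and in 2 it was 1 or higher (2.38%, against 4.46%). The lowest was -3.06, for the chromosome 7 locus at 150.31 Mb, whose polysome-to-total ratio of FPKM was 1.47 in wild type and 0.11 in rea1. The next was -2.72, for the chromosome 2 locus at 19.27 Mb, with ratios of 0.83 and 0.10. The third, on chromosome 1 at 283276750 to 283278318, was at 1.12 and 32.6 FPKM in wild-type and rea1 total RNA and at 1.14 and 5.31 FPKM on polysomes, a change of -2.05; with 5 added before the logarithm its smaller difference of 1.32 was 0.61, under the limit. In these 3 loci the polysome value was higher in rea1 too, by 17.1-fold, 183-fold and 4.67-fold, but by a smaller factor than total RNA.

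The largest change in the other direction was on chromosome 8, at 154976915 to 154978364. This locus had 19.7 FPKM in wild-type and 80.2 in rea1 total RNA, and at 8.72 and 176 FPKM on polysomes. Its polysome value was below its total RNA value in wild type and above it in rea1, the highest polysome value of the 84 loci, and the change was 2.59. On chromosome 3, the locus 127316146 to 127317795 had 0.185 and 2.94 FPKM in total RNA of wild type and rea1 and at 0.231 and 6.54 FPKM on polysomes, a change of 1.26. It is a low locus, and its smaller difference was 1.11, or 0.22 with 5 added before the logarithm, which is under the limit. On chromosome 5, the locus 26998356 to 27013206 had 4.26 and 21.4 FPKM in total RNA and at 1.79 and 15.8 FPKM on polysomes, a change of 0.87. In these 3 loci both rea1 libraries were above both wild-type libraries.

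**Figure D3:**
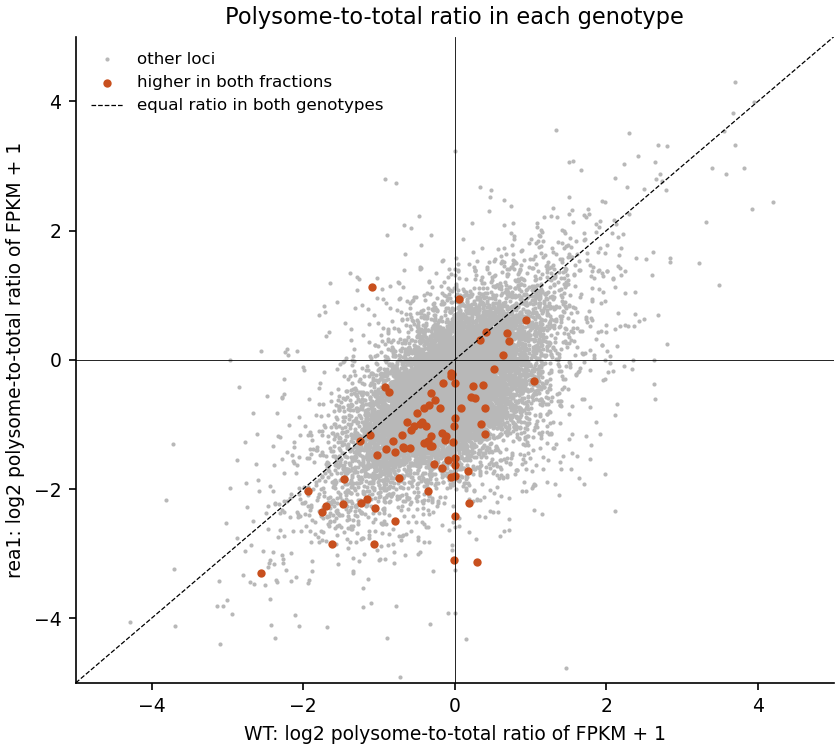
Each point is 1 locus, with the log2 polysome-to-total ratio of FPKM + 1 in wild type on the x axis and in rea1 on the y axis; 6 other loci lie beyond the axes. The orange members lie mostly under the dashed line of equal ratios, with medians of -0.28 in wild type and -1.17 in rea1, and the single orange point at the upper left is the chromosome 8 locus at 154.98 Mb.

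Length entered the rule only through its limits. The median length of the 84 loci, introns included, was 2498 bp, against 4013 bp over all loci within the limits. Members were 1.20% of the 1912 loci of 600 to 1500 bp, 0.783% of the 3448 loci of 1500 to 3000 bp, 0.258% of the 6190 loci of 3000 to 6000 bp and 0.42% of the 4285 loci of 6000 bp and more. At 30 to 100 mean FPKM the shares of these classes were 3.24%, 2.06%, 0.544% and 0.562%, and at 10 to 30 FPKM 1.44%, 1.36%, 0.241% and 0.614%. Differences between the libraries were also more widely spread over short loci: the interquartile range of the total RNA difference was 1.06 in the shortest class and 0.667 in the longest. The part of that spread in the shares was not tested. Loci at least 2-fold lower in both fractions were shorter still, with a median of 1713 bp.

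Position was not used by the rule beyond the exclusion of organelles. Members were found on each of the 10 chromosomes, from 3 on chromosome 10 to 17 on chromosome 6. Chromosome 6 held 17 members among 1294 loci (1.31%), and the rest of the genome 67 among 14541 (0.461%), a ratio of 2.85. The members on chromosome 6 lay between 8.68 and 167.79 Mb, and their median differences were 1.31 (total RNA) and 1.24 (polysomes), below those of all members. The medians over all chromosome 6 loci within the limits were 0.0006 and -0.016, near those of all loci. Its loci lower in both fractions were 1.47% of its loci, against 0.949% elsewhere. The excess of members was not stable. The ratio was 1.09 with 5 added before the logarithm. With a mean of at least 10 FPKM required it was 0.739, which turns its direction. That setting also took the subtracted median anew over its own loci, and it left 31 members.

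**Figure D4:**
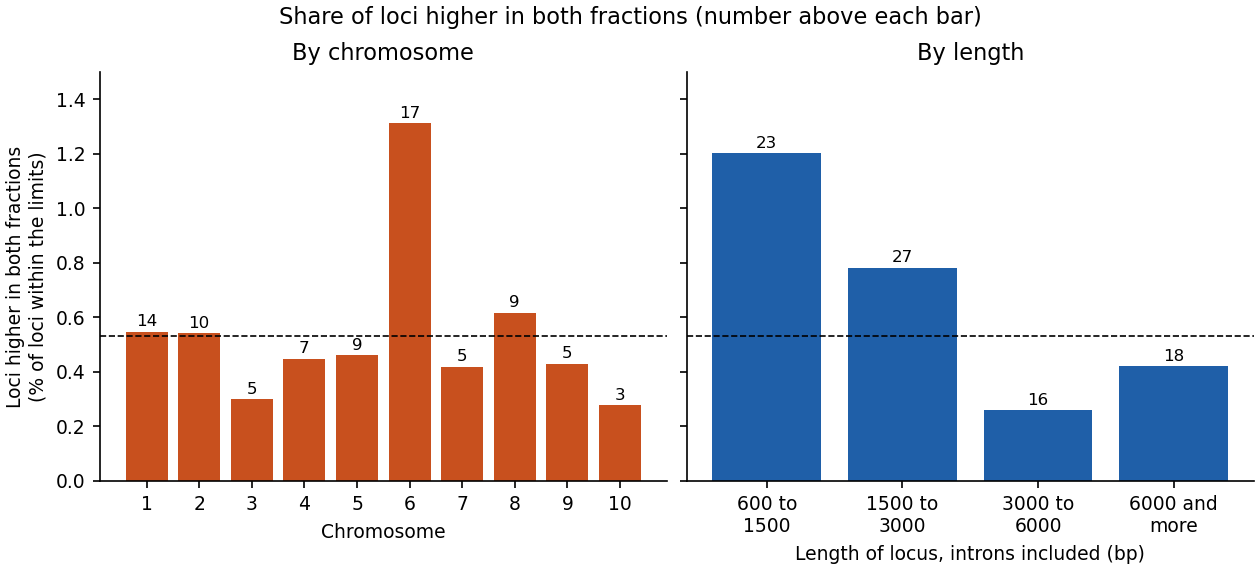
Bars give the share of loci within the limits that were higher in both fractions, by chromosome (left) and by length class (right), with the number of loci above each bar. The dashed line is the share over all 15835 loci, 0.53%; chromosome 6 stands at 1.31% and the shortest class at 1.20%.

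Most members stood alone. Of the 84, 72 had no other member within 500 kb, and 12 formed 5 groups, 2 of them with 3 loci. Members were only 0.53% of the loci within the limits, and no background for these counts was computed. Only the pair on chromosome 6 at 96852560 to 96855517 and 96859224 to 96863129 was directly adjacent in the order of loci within the limits, 3.71 kb apart. The former was at 11.0 and 38.0 FPKM in total RNA of wild type and rea1 and at 3.36 and 9.90 FPKM on polysomes. The latter was at 13.8 and 55.3 FPKM in total RNA and at 3.56 and 10.7 FPKM on polysomes. These neighbours had like values in every library, with steps of 3.46-fold and 4.01-fold in total and 2.94-fold and 3.02-fold in polysome-bound RNA. Their polysome-to-total ratios were low in both genotypes, 0.31 and 0.26 in wild type and 0.26 and 0.19 in rea1. Both are close to the limit: the smaller difference of the former fell to 0.69 to 0.996 under 4 of 9 alternatives, and that of the latter to 0.74 and 0.998 under 2.

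The third member of that group, at 97278294 to 97280551, was at 0.972 and 17.0 FPKM in total RNA of wild type and rea1 and at 0.635 and 4.87 FPKM on polysomes. Its smaller difference was 1.60, or 0.67 with 5 added before the logarithm. Between these members lay 8 other loci within the limits, with centred differences from -0.80 to 0.65 in total and from -0.72 to 0.40 in polysome-bound RNA. The median of these was 0.01 in total and -0.01 on polysomes, so the loci in between were near the general level.

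The other group of 3 lay on chromosome 4, over 394 kb from 239030864 to 239424822. Its outer members are the similar loci of high level described above. The middle one, at 239241130 to 239245311, was at 0.124 and 5.98 FPKM in total RNA of wild type and rea1 and at 0.104 and 1.90 FPKM on polysomes. Its smaller difference was 1.15, or 0.30 with 5 added before the logarithm, which leaves a pair in place of the group of 3. Among them lay 6 other entries within the limits, with differences from -2.26 to 0.45 in total and from -0.69 to 0.69 in polysome-bound RNA. An entry at 239108000 to 239109462 was lower in rea1 total RNA, at 3.97 FPKM against 14.5 in wild type, with 3.48 and 2.90 FPKM on polysomes. This stretch of chromosome 4 thus held loci that differed in opposite directions in total RNA.

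**Figure D5:**
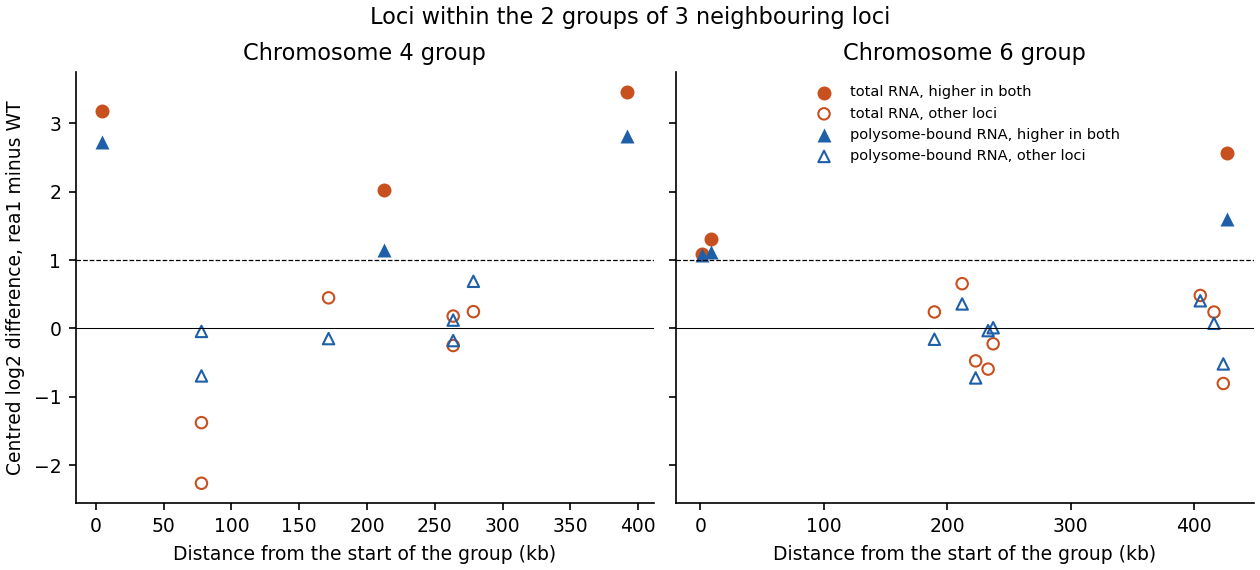
Centred log2 difference of rea1 minus wild type for each locus within the 2 groups of 3 members, against the distance of its midpoint from the start of the group in kb, in total RNA (circles) and polysome-bound RNA (triangles). Filled symbols are members, all above the dashed line at 1; open symbols are the 6 and 8 other entries in between, which lie on both sides of 0.

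The 3 pairs were at 276.88 and 277.10 Mb of chromosome 1, at 4.10 and 4.27 Mb of chromosome 5 and at 144.85 and 145.30 Mb of chromosome 6, the last holding the shared entry listed at 0. The chromosome 5 pair was alike in level: 17.1 and 89.9 FPKM in total RNA of wild type and rea1 for the locus at 4101244 to 4102794, and 11.6 and 69.6 FPKM for that at 4269184 to 4271800. On polysomes they were at 13.4 and 35.2 FPKM and at 15.5 and 41.2 FPKM. The 6 other loci between them had a median difference of -0.05 in total and 0.03 in polysome-bound RNA.

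The loci next to members were near the general level. The nearest other loci within the limits on each side, 166 in number, had median differences of -0.003 in total and -0.03 in polysome-bound RNA, against -0.02 and -0.01 over all 15751 loci that were not members. Of these neighbours 7.83% reached the 2-fold limit in total RNA, against 5.40% of all that were not members, and 1.20% against 1.03% did so on polysomes.

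Of the 84 loci, 4 share their coordinates with a second entry, 4.76% against 5.51% of all loci within the limits, and no member overlaps any other listed locus. None of the second entries was a member. On chromosome 6 at 8678515 to 8680555 both entries were higher in rea1, the member at 34.6 and 135 FPKM and the second entry at 62.3 and 229 FPKM in total RNA of wild type and rea1. On polysomes the member was at 16.4 and 47.7 FPKM and the second entry at 27.3 and 47.3. On chromosome 1 at 41105576 to 41111313 the member was at 13.2 and 58.4 FPKM in total RNA of wild type and rea1, while the second entry was at 16.5 and 19.1. On polysomes that member was at 3.21 and 10.6 FPKM and its second entry at 20.1 and 20.2. On chromosome 1 at 276878165 to 276887250 the member was at 3.18 and 27.2 FPKM in total RNA and the second entry at 1.40 and 2.44. On polysomes this member was at 2.93 and 8.63 FPKM and its second entry at 0.0269 and 0.439. These positions, with that at 144.85 Mb of chromosome 6, are higher in rea1 by 1 entry only or by unequal amounts, and reads can be divided between such entries.

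At the limit itself, the 2 members with the smallest lower difference were on chromosome 2 at 64406192 to 64419933 and on chromosome 5 at 45995086 to 45997871. The former was at 2.37 and 9.37 FPKM in total RNA of wild type and rea1 and at 2.29 and 7.92 FPKM on polysomes, with differences of 1.002 and 1.20. The latter was at 1.96 and 8.16 FPKM in total RNA and at 1.65 and 6.16 FPKM on polysomes, with 1.01 and 1.19. Just outside, the locus on chromosome 2 at 177590 to 179372 was at 8.59 and 57.1 FPKM in total RNA and at 7.20 and 18.4 FPKM on polysomes, with differences of 1.98 and 0.996. The locus on chromosome 3 at 127990107 to 127991462 was at 11.1 and 36.1 FPKM in total RNA and at 1.34 and 6.92 FPKM on polysomes, with 0.993 and 1.52. All 4 were higher in both rea1 libraries than in wild type of the same fraction, and the 2 outside were of higher mean level than the 2 inside. With 5 added before the logarithm, the smaller difference of the 2 inside was 0.57 and 0.53, under the limit.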

How the data were processed

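The authors deposited 1 file for each of the 4 libraries with an FPKM value per locus, per the file headers. Per the submitters' processing notes, the aligner Bowtie 0.12.2 and the build B73 RefGen_v3 applied. Which program and annotation gave FPKM, and over which fragments it was scaled, is not given in the sources used here. Triplicates are mentioned in the series' design, yet a file has a single value per locus, so a file counts as 1 library and no test was made. Starts were read as counted from 0 and are printed counted from 1, since the lengths of 48 of the 73 organelle loci were then multiples of 3, against 16 otherwise. Gene names were not joined, as the gene table at hand belongs to a different build.

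From these values, log2(FPKM + 1) differences, their medians and counts were computed in Python 3.11.15 with numpy 2.4.6 and pandas 2.3.3, and drawn with matplotlib 3.10.9. The error rate of the rule for members was not tested, since each group has 1 library. The members, the rule and the comparisons were chosen with earlier results of these data known. Named were the 6 members with the largest smaller difference and the 3 with the highest mean; the 3 with the largest and the 3 with the lowest change of the polysome-to-total ratio (above 0 in all libraries, as for the 6); those listed at 0 in both wild-type libraries at a mean of at least 5 FPKM; groups of 3 within 500 kb; and 2 loci on each side of the limit. This took 21 loci, and others are named by their counts or position. Alternatives were a pseudocount of 0.1 or 5, no filter or a mean of at least 10 FPKM, values as deposited, 2 other scalings, loci above 0 in all libraries, and loci that share no coordinate.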

Additional observations from a re-analysis of the deposited data

Results flagged for a closer look

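The polysome-to-total ratio of the chromosome 8 locus at 154976915 to 154978364 was at least 2-fold from 1 in opposite directions in the genotypes. On the log2(FPKM + 1) scale it was -1.09 in wild type (19.7 FPKM in total and 8.72 in polysome-bound RNA) and 1.13 in rea1 (80.2 and 176 FPKM). It was the single member of the 84 with such a reversal. Over all loci within the limits, 6.73% were at least 2-fold below 1 in wild type. In rea1, 2.65% of them were at least 2-fold above 1. How many were both was not counted, and the same libraries entered the rule. The difference was not tested, since each ratio rests on 1 library per fraction.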

How the results depend on the processing

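No paired analysis was possible because each group has 1 library and the labels give no replicate numbers. Beside 84 members, there were 225 with a pseudocount of 0.1, 34 with 5, 194 with no filter on low values, 31 with a mean of at least 10 FPKM, 337 with values as deposited, 460 at a 1.5-fold limit and 17 at a 4-fold limit. With a mean of at least 10 FPKM, the median that is subtracted was also taken anew over those loci. In the main setting, 27 members had a mean of 10 to 30 FPKM and 23 had one of 30 to 100 FPKM. Median-of-ratios scaling gave 98 (77 shared with the 84), and equal sums without the 50 most abundant loci gave 69 (62 shared). The median total RNA difference was 1.61; it was 1.74 with a pseudocount of 5, 1.42 with no filter, 2.42 with a mean of at least 10 and 1.71 with equal sums. The median polysome difference was 1.30; it was 1.46 with a pseudocount of 0.1, 1.92 with a mean of at least 10 and 1.40 with equal sums. The polysome-to-total ratio changed by a median of -0.34; this was -0.18 with a pseudocount of 0.1 and with no filter, -0.55 with 5 and -0.61 with a mean of at least 10. It was negative under all 9 alternatives. These apply the rule with other settings to the same 4 libraries, so the constant sign is no independent check. Members within a set gap of another were 12 at 500 kb, 2 at 100 kb and 20 at 1 Mb. The ratio of shares of chromosome 6 over the rest, 2.85, was 1.09 with a pseudocount of 5, 1.80 with no filter, 1.30 as deposited and 0.739 with a mean of at least 10. That ratio and the length were put under alternatives after the data were seen, and the median length stayed between 2258 and 3521 bp. The causes were not tested. Of 180 values of the named loci under alternatives, 16 fell below the limit and 6 rose above it. Named loci that an alternative put outside the limits of level or entry are not counted there. With a mean of at least 10 FPKM, 15 of the 21 named loci remained and 11 were members, against 19 members in the main setting.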

Other observations

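The limits of level and length left out 34 of the 118 loci that reached a mean of 1 FPKM and both 2-fold limits. Of these, 17 had a mean of 100 FPKM or more, 14 were shorter than 600 bp and 3 were 20 kb or longer. The most abundant, on chromosome 9 at 22112240 to 22116928, was at 460 and 2190 FPKM in total RNA of wild type and rea1 and at 572 and 1383 FPKM on polysomes. On chromosome 7, the locus 157638031 to 157641018 had 23.8 and 1135 FPKM in total RNA and at 19.1 and 550 FPKM on polysomes, a step as steep as that of the leading members at a higher level. The locus on chromosome 3 at 201981099 to 201981984 had a steeper step. It was at 3.69 and 1253 FPKM in total RNA of wild type and rea1 and at 2.84 and 307 FPKM on polysomes. Of the 14 short loci, 5 were listed at 0 in both wild-type libraries. Those named here were chosen after their values were seen.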
